A study of Mus musculus with 4 samples.

Results

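The 10 genes described here belong to megakaryocytes and platelets: Pf4, Ppbp, Itga2b, Gp9, Gp1ba, Gp1bb, Gp5, Vwf, Treml1 and Clec1b. They were chosen by name, and their probes were found through the RefSeq accession that the array files give each probe. All 10 had a probe, out of 33378 genes or transcripts on the array. Each was measured by 1 probe with 1 spot per array. They lie on 5 chromosomes.

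Megakaryocytes are the large marrow cells that shed platelets, the cell fragments that stop bleeding. They fill alpha granules with chemokines and adhesive proteins, and carry surface receptors for collagen-bound von Willebrand factor (the GPIb-IX-V complex) and for fibrinogen (the integrin of which Itga2b encodes one chain). Their genes are known to be switched on by transcription factors of the GATA and ETS families. In bulk RNA such as this, fewer cells of a type and less RNA per cell cannot be told apart.

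RNA came from 4 mouse samples, each on its own single-colour Agilent array. Induced pluripotent stem (iPS) lines 7 and 13 (n = 2, 1 array per line) were derived from bone marrow mononuclear cells. They are labelled C57BL/6 and came from mice with an Oct4-EGFP transgene, a green fluorescent reporter of a pluripotency gene. The embryonic stem (ES) cells were the E14 line of strain 129 (n = 1). The bone marrow mononuclear cells (BMMNCs, n = 1) are labelled C57BL/6 and are a mixed fraction of marrow cells, in which megakaryocytes are rare. Both kinds of stem cell grew on irradiated mouse embryonic fibroblasts in medium with leukemia inhibiting factor, and the feeders were removed on gelatin before RNA was isolated. ES cells and C57BL/6 lines thus also differ in strain, so strain and cell kind cannot be told apart between them.

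All 4 arrays lay on 1 slide with 1 scan time and no saturated spot. The 75th percentile of signal lay between 1120 and 1123 in the iPS lines, and was 1048 in ES cells and 602 in BMMNCs. A level below is the log2 of the processed signal relative to that percentile, comparable between arrays for a gene but not between genes. The labelled cell kinds were checked with marker lists: all 8 pluripotency genes were well above background on each stem cell array, against 3 of 8 in BMMNCs, and the leukocyte phosphatase Ptprc was at -3.17 and -3.27 in iPS lines 7 and 13, -3.00 in ES cells and 5.11 in BMMNCs. Among the pluripotency genes, Zfp42 was lower in the iPS lines than in ES cells, with a log2 difference of -3.70 (-4.93 by its other probe). The differences were tested with limma over the 21216 genes above background on at least 1 array, with Benjamini-Hochberg adjustment and a threshold of 0.05. Only the 2 lines give a spread, and whether they came from separate animals is not stated, so a p-value assumes that a second ES or BMMNC array would have differed from the first as the lines do from each other, and part of that spread may be technical.

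The sequence around the start of transcription is shown for 5 of the genes, picked from those whose promoters hold the letters of GATA or ETS binding words. Each runs from 250 bases before to 50 bases after the RefSeq start site (GRCm38.p6), read 5′ to 3′ on the gene's strand, with matches to either family's words in capitals. The first 3 belong to the chemokine gene Pf4, the integrin gene Itga2b and the von Willebrand factor receptor gene Gp1ba, at chr5:90772185-90772484, plus strand, chr11:102469834-102470133, minus strand, and chr11:70638872-70639171, plus strand.
Pf4: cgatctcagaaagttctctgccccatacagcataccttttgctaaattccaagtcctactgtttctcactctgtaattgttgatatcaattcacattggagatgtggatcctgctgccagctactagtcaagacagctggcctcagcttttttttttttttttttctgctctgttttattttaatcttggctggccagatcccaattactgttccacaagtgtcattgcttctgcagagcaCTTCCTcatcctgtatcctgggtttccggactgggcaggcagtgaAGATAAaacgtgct
Itga2b: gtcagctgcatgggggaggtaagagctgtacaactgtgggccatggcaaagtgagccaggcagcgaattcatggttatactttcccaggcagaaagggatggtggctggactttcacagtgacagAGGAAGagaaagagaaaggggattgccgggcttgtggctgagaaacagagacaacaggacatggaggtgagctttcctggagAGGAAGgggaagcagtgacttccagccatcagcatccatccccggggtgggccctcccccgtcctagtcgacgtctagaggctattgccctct
Gp1ba: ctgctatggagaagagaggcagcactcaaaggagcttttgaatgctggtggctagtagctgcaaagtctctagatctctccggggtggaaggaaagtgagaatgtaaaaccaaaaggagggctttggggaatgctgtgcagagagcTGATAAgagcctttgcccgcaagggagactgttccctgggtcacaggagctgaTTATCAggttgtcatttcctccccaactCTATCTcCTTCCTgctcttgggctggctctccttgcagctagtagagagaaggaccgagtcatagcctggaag
The other pair belong to Gp1bb and Gp5, further subunits of that receptor, at chr16:18622354-18622653, minus strand, and chr16:30310732-30311031, minus strand.
Gp1bb: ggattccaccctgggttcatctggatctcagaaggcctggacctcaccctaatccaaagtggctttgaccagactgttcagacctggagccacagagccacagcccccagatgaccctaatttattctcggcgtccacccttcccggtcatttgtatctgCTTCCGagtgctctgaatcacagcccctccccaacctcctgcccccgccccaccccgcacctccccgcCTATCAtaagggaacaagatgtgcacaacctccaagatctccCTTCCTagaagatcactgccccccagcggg
Gp5: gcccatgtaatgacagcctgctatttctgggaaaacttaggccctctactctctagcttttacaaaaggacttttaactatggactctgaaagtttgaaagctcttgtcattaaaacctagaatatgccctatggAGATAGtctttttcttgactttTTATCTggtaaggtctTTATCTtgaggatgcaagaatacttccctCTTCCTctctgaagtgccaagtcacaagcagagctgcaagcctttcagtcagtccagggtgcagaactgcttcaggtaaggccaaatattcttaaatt
The GATA words searched, on both strands, were AGATA or TGATA followed by A or G, and the ETS words were GGAAG preceded by A or C. Of the 9 genes with a RefSeq promoter entry, 5 held a GATA word, against 29.76% of all 32851 promoters of this length. An ETS word stood in 6 of 9, against 46.47% of all promoters, and both families in 4 of 9, against 12.61%. The 4 with both are all among the 5 shown. Gp1ba and Gp5 held 3 GATA words each, with first bases at -104, -51 and -23 in Gp1ba and at -115, -93 and -77 in Gp5, counted from the start site. Itga2b held no GATA word and 2 ETS words, at -125 and -43. Ppbp and Treml1, not shown, held no word of either family. A RUNX word, TGTGGT, was found in Gp9 alone (16.76% of all promoters), and the NF-E2 word TGAGTCA in none of the 9 (5.2% of all promoters). These are matches of letters, with no measure of binding, and a link to the RNA levels was not tested.

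All 10 genes were highest in BMMNCs, and on each of the other 3 arrays each scaled level was at least 2-fold lower. For Gp1bb and Vwf that 2-fold margin depended on the processing. With normexp background correction Gp1bb was 1.96-fold lower than in BMMNCs, both in the iPS lines and in ES cells. Vwf in ES cells was 1.88-fold lower with normexp and 1.98-fold lower by the authors' deposited table. Over all genes tested, BMMNCs were the highest array for 44%, and at least 2-fold above every other array for 23.7%. The genes split by how much signal was left in the stem cells: 5 were well above background on all arrays (70% of all genes tested), 4 in BMMNCs alone (8.23%), and Gp5 in BMMNCs and line 7.

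**Figure D1:**
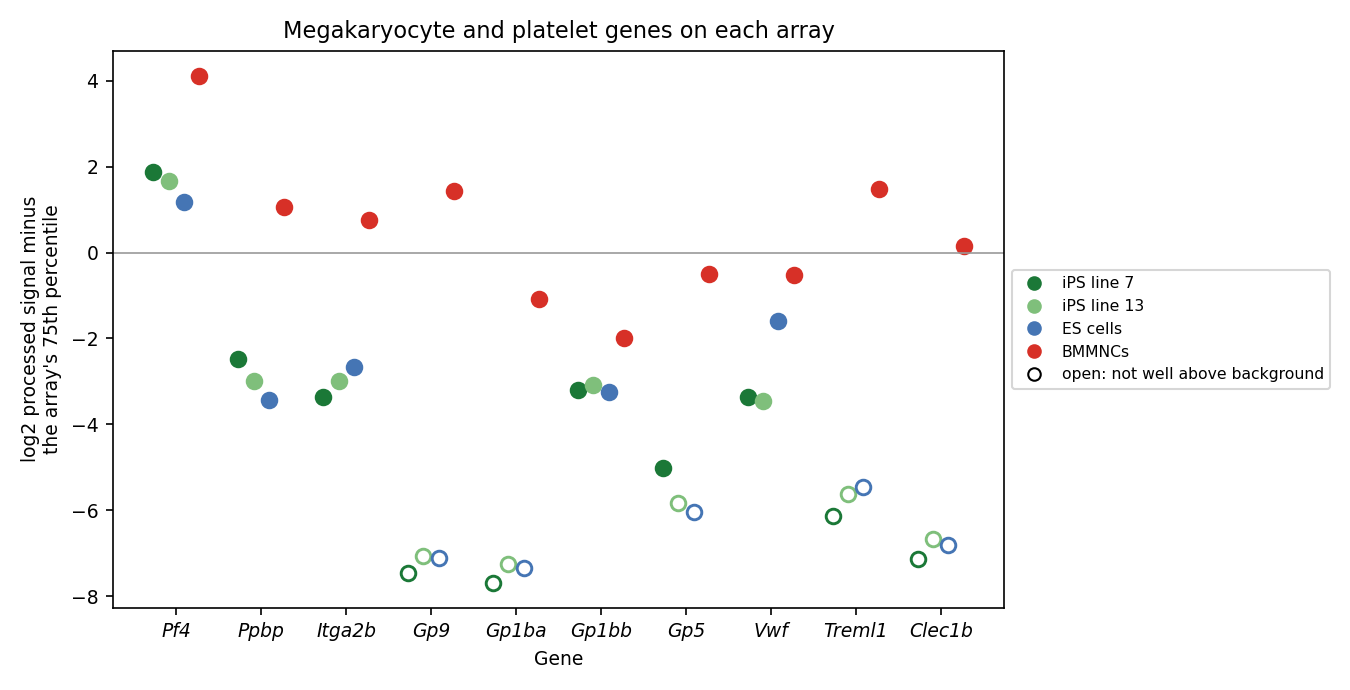
Level of each gene (log2 of the processed signal relative to the 75th percentile of its array) on the arrays of iPS line 7, iPS line 13, ES cells and BMMNCs, 1 point per array, with open circles where a probe was not well above background. The BMMNC point is the highest for all 10 genes, while Vwf is the gene at which the ES cell point, -1.60, stands well above those of the iPS lines, -3.36 and -3.45. Heights of different genes cannot be compared.

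Both alpha-granule chemokines gave signal in every sample and were lower in all stem cells than in BMMNCs. Pf4, platelet factor 4, a chemokine that binds heparin, was at 1.89 in line 7, 1.66 in line 13, 1.18 in ES cells and 4.11 in BMMNCs. Its probe was bright on every array, with a processed signal of 4137 in line 7, 3561 in line 13, 2376 in ES cells and 10378 in BMMNCs. The iPS lines, at 21.4% and 18.4% of the BMMNC level, lay closer to each other than to either other sample. In limma Pf4 was 5.04-fold lower in the iPS lines than in BMMNCs (log2 difference -2.33, SE 0.15, 95% interval -2.82 to -1.85, adjusted p = 0.00254) and 7.60-fold lower in ES cells than in BMMNCs (-2.93, SE 0.17, adjusted p = 0.00258).

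Ppbp, pro-platelet basic protein, the precursor of a neutrophil-attracting chemokine, was at -2.48 in line 7, -2.98 in line 13, -3.44 in ES cells and 1.06 in BMMNCs. The lines differed by 0.50, the widest gap between them among the 5 genes above background on every array. Against BMMNCs, Ppbp was 13.8-fold lower in the iPS lines (-3.79, SE 0.28, limma adjusted p = 0.00326) and 22.6-fold lower in ES cells (-4.50, SE 0.32, adjusted p = 0.00353). With normexp these were 9.13-fold and 12.3-fold. Pf4 and Ppbp lie side by side on chromosome 5, within a cluster of chemokine genes.

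Itga2b encodes the alpha chain (CD41) of the platelet fibrinogen receptor, and it also marks early blood precursors of the embryo. Its level was -3.35 in line 7, -2.99 in line 13, -2.68 in ES cells and 0.75 in BMMNCs, so that among the stem cells ES cells were the highest, whereas they were the lowest for Pf4 and Ppbp. It was 15.1-fold lower in the iPS lines than in BMMNCs (-3.92, SE 0.21, limma adjusted p = 0.00196) and 10.7-fold lower in ES cells than in BMMNCs (-3.42, SE 0.24, adjusted p = 0.00353). With normexp the iPS value was 9.45-fold. The stem cell levels were 5.83%, 7.51% and 9.33% of that in BMMNCs, for line 7, line 13 and ES cells in turn.

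The subunits of the GPIb-IX-V complex, the platelet receptor for von Willebrand factor, differed in whether any signal was left. Gp9, the small subunit needed for the complex to reach the surface, was at -7.47 in line 7, -7.06 in line 13, -7.12 in ES cells and 1.43 in BMMNCs, and only BMMNCs were well above background. For such a gene a bound is given, with the brighter group's mean set against the dimmer group's. Each dim array is first raised, where needed, to its faintest probe that still cleared background. That level is the minimum over an array's probes and no detection limit for each gene, so the bounds are approximate. Gp9 was at least 101-fold lower in the iPS lines (limma adjusted p = 0.000851) and at least 94.7-fold lower in ES cells (adjusted p = 0.0013) than in BMMNCs. A p-value beside a bound, here and below, belongs to the fitted difference, with dim values entered as measured, and not to the bound. The spread between the lines behind it rests in part or whole on values below background.

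Gp1ba, the chain that binds von Willebrand factor, was at -7.68 in line 7, -7.25 in line 13, -7.35 in ES cells and -1.07 in BMMNCs, again above background in BMMNCs alone. It was at least 17.9-fold lower in the iPS lines and at least 16.7-fold lower in ES cells than in BMMNCs (limma adjusted p = 0.0012 and 0.0018). Gp5, a subunit cut by thrombin, was at -5.02 in line 7, where it was above background, -5.83 in line 13 and -6.05 in ES cells, where it was not, and -0.50 in BMMNCs. The difference measured on both sides, line 7 minus BMMNCs, was -4.52, and ES cells were at least 24.9-fold lower than BMMNCs (limma adjusted p = 0.00529). Over both lines the fitted difference was -4.92 (SE 0.43, adjusted p = 0.00459), which includes the line 13 value below background, and with normexp it was -3.22.

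Gp1bb, the chain linked to Gp1ba, was the least changed of the 10 in the iPS lines against BMMNCs. It was above background everywhere, at -3.19 in line 7, -3.09 in line 13, -3.25 in ES cells and -1.98 in BMMNCs, and the stem cell arrays differed from each other far less than from BMMNCs. The iPS lines were 2.24-fold lower than BMMNCs (-1.16, SE 0.11, 95% interval -1.51 to -0.81, limma adjusted p = 0.00499) and ES cells 2.41-fold lower (-1.27, SE 0.12, adjusted p = 0.00611). The RefSeq annotation places Gp1bb over the neighbouring gene Septin5. Septin5, a filament-forming GTPase gene, was at 1.01 in line 7, 0.86 in line 13, 0.55 in ES cells and 3.06 in BMMNCs. How much of either signal comes from shared transcripts was not tested.

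Vwf encodes von Willebrand factor, the adhesive protein that megakaryocytes and endothelial cells make, and it was the gene that parted the kinds of stem cell. Its level was -3.36 in line 7, -3.45 in line 13, -1.60 in ES cells and -0.53 in BMMNCs. The iPS lines stood at 14.1% and 13.2% of the BMMNC level, and ES cells at 47.5% of it. Against BMMNCs, Vwf was 7.34-fold lower in the iPS lines (-2.88, SE 0.10, limma adjusted p = 0.00114) and 2.10-fold lower in ES cells (-1.07, SE 0.12, adjusted p = 0.00795).

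Treml1 and Clec1b encode platelet surface proteins, a receptor stored in granules and the receptor for podoplanin (CLEC-2). Treml1 was at -6.13 in line 7, -5.62 in line 13, -5.47 in ES cells and 1.49 in BMMNCs. Clec1b was at -7.12 in line 7, -6.68 in line 13, -6.81 in ES cells and 0.15 in BMMNCs. Neither was well above background in any stem cell. Treml1 was at least 105-fold lower in the iPS lines and at least 98.8-fold lower in ES cells than in BMMNCs (limma adjusted p = 0.00122 and 0.0019). For Clec1b the bounds were 41.6-fold and 39.0-fold (adjusted p = 0.00112 and 0.00165). The scanner's own error estimate was at most 10.4% of the signal for the 10 genes in BMMNCs, and 99.5% to 99.7% on the stem cell arrays for Gp9, Gp1ba and Clec1b, so the order of those dim values carries no information. The bounds were computed on the processed signal. With normexp background correction, which adds an offset of 50 to each signal, the folds in the iPS lines against BMMNCs were smaller than the bounds, 47.3 for Gp9, 9.67 for Gp1ba, 30.5 for Treml1 and 15.4 for Clec1b, and all 4 still passed.

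**Figure D2:**
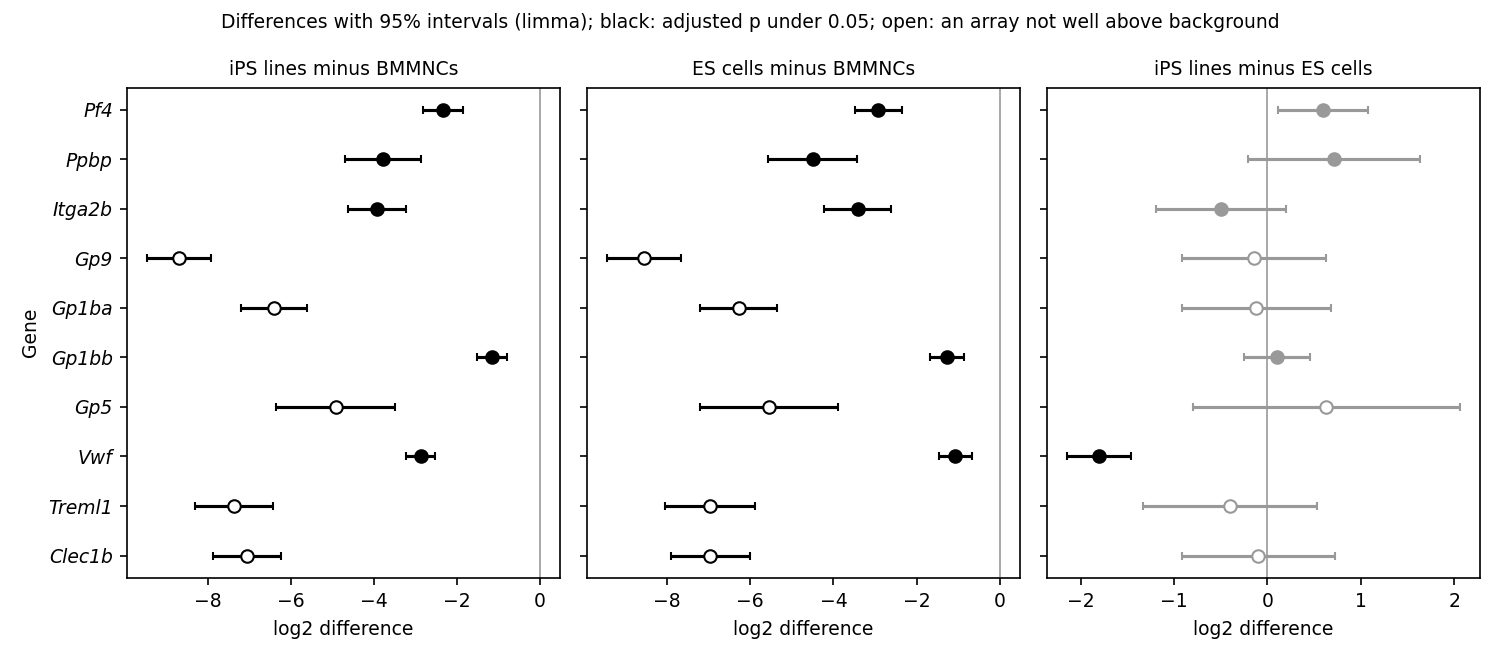
Log2 differences of the 10 genes with 95% intervals from limma, for iPS lines minus BMMNCs, ES cells minus BMMNCs and iPS lines minus ES cells, with open circles where an array was not well above background. All intervals against BMMNCs lie below 0, and of the iPS lines minus ES cells only that of Vwf passed the adjusted threshold (-2.15 to -1.46).

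Counted together, 10 of 10 genes fell in the iPS lines against BMMNCs, with a median log2 difference of -4.04 where arrays below background were set at their bound (-4.42 as fitted). Of all genes tested 37.8% fell, with a fitted median of -0.01. By a size rule of 4-fold in both lines, 9 of 10 fell (all but Gp1bb), against 15% of all genes. In ES cells against BMMNCs 10 of 10 fell as well (34.7% of all genes tested), with a median of -4.28 with bounds and -5.03 as fitted, beside a fitted 0.06 for all genes, and 8 of 10 by the size rule (15.8%), Gp1bb and Vwf being the exceptions. The 4 genes above background in BMMNCs alone entered the test only through the array on which they were high, so their place in these counts was set by the filter. Of the 5 genes above background on all arrays, 5 fell in either comparison when the fit held such genes only, against 44.3% and 41.1% of the genes tested there. With the ES cells and iPS lines taken as 1 group, Vwf no longer passed against BMMNCs (-2.28, limma adjusted p = 0.105).

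Between the kinds of stem cell, 1 of 10 genes was lower in the iPS lines than in ES cells and 0 were higher, where 2.83% of all genes tested were lower and 1.95% higher. The fitted median was -0.11 for the 10 genes and -0.06 for all genes. Over the 6 genes above background on either side, with bounds, it was 0.11, of the other sign. By a size rule of 2-fold in both lines the count was also 1 (4.19% of all genes). Vwf was 3.49-fold lower in the iPS lines (-1.80, SE 0.10, 95% interval -2.15 to -1.46, limma adjusted p = 0.0429). That call was narrow: the adjusted p was 0.055 from the authors' deposited table and 0.156 without a filter on dim probes, and 9.15e-11 to 0.0473 in the other settings that gave a test. The value itself moved little when a line was left out, to -1.85 without line 7 and to -1.76 without line 13.

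Pf4 was higher in the iPS lines than in ES cells by 0.59 (SE 0.15, 95% interval 0.11 to 1.08), with a limma adjusted p = 0.128 that did not pass, although its interval excludes 0. Ppbp differed by 0.71 (interval -0.20 to 1.63, adjusted p = 0.216) and Itga2b by -0.50 (interval -1.19 to 0.20, adjusted p = 0.239). Gp1bb differed by 0.11 (interval -0.25 to 0.46, adjusted p = 0.552). Gp5 differed by 0.63 (interval -0.80 to 2.06, adjusted p = 0.408), on 1 array above background. Gp9, Gp1ba, Treml1 and Clec1b were above background in neither kind of stem cell, so no difference between them can be read. In other settings Pf4, Ppbp and Itga2b did pass the threshold here: limma gave adjusted p values of 0.000692, 0.00169 and 0.00706 over genes above background on all arrays, and 2.9e-05, 0.000696 and 0.00782 with an intensity trend in the prior. Over genes above background on all arrays, 16.3% of those tested were higher and 22.6% lower.

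Line 7 and line 13 are single arrays and were not tested. Line 7 minus line 13 was 0.22 for Pf4, 0.50 for Ppbp, -0.37 for Itga2b, -0.10 for Gp1bb and 0.09 for Vwf. None of these 5 genes was 2-fold apart between the lines, as were 51 of 17546 genes above background in both (0.291%).

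Further genes of the lineage were grouped by role in 5 lists. Of 15 other platelet receptors and adhesion molecules, 11 were tested, and 9 fell in the iPS lines against BMMNCs, 0 rose and 2 did not pass. Of all genes tested 37.8% fell and 38% rose, and 4 of the 11 entered the test through the BMMNC array alone. The median was -1.46 where arrays below background were set at their bound (-2.75 as fitted). P2ry1, an ADP receptor, had the widest gap measured on both sides, -5.20 (SE 0.11), while its other probe was not above background in the stem cells. Itgb3, which encodes the partner chain of Itga2b, did not follow it: its level was 0.16 in line 7, 0.23 in line 13, 0.10 in ES cells and -0.09 in BMMNCs, a difference of 0.28 (interval -0.04 to 0.60, adjusted p = 0.0865). The other gene that did not pass was Pear1, at 0.16.

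Granule genes moved both ways, with 5 higher and 5 lower of 10 tested and a median of 0.01. Of all genes tested 38% rose and 37.8% fell. F13a1, a coagulation transglutaminase, and F5, coagulation factor V, were above background in BMMNCs alone, and in the iPS lines F13a1 was at least 1953-fold and F5 at least 23.0-fold lower. Srgn, the granule proteoglycan, fell by 6.94. Timp3, an inhibitor of metalloproteinases, rose by 6.98 (SE 0.12), together with Pdgfa (6.42), Thbs1 (4.74, or 5.72 and 7.55 by its other probes), Serpine2 (3.16) and Clu (2.51), secreted proteins that fibroblasts and many other cells also make. Fibroblast markers, listed for the feeder cells, moved with them: 8 of 8 rose, the log2 summed level of the list was 8.58 and 8.50 in the iPS lines, 8.36 in ES cells and 3.04 in BMMNCs, and their part in the result was not tested.

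Signalling genes fell nearly throughout, with 13 lower and 1 higher of 14 and a median of -3.68. Ptgs1, the cyclooxygenase of platelets, fell by 2.39 (SE 0.12), and Tbxas1, the thromboxane synthase, fell by 5.42 (SE 0.18). Fermt3, kindlin-3, which activates integrins in blood cells, fell by 6.40 (SE 0.13), and Gng11, a G protein gamma subunit, was the one that rose (1.66, SE 0.12). Of 7 cytoskeleton genes tested 4 fell, 2 rose and 1 did not pass, near the shares of 37.8% and 38% over all genes, and without a filter on dim probes only 2 fell. Among them were Was, the actin regulator of blood cells, at -6.61 (SE 0.11), Myh9, a non-muscle myosin heavy chain, at -0.53 (SE 0.096) and Actn1, an actin crosslinker, at 1.80 (SE 0.14).

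The transcription factors that drive megakaryocyte genes fell in 10 of 11 cases in the iPS lines against BMMNCs, with a median of -2.74. The exception was Mafg (-0.35, limma adjusted p = 0.052). Of all genes tested 37.8% fell in this comparison. Gata1 was at -3.20 in line 7, -3.32 in line 13, -4.31 in ES cells and 2.54 in BMMNCs, a difference from BMMNCs of -5.79 (SE 0.11). Fli1, an ETS factor, fell by 7.48 (SE 0.092), and Gfi1b, a repressor of blood genes, fell by 7.48 (SE 0.20). Nfe2 and Tal1 were above background in BMMNCs alone, and in the iPS lines Nfe2 was at least 1195-fold and Tal1 at least 579-fold lower. In the iPS lines against ES cells none of the 5 lists held a gene past the adjusted threshold, and their medians, over genes above background on either side, lay between -0.02 and 0.49. That count of 0 depended on the setting. The transcription factors had 3 higher with median scaling, 3 with normexp, 5 over genes above background on all arrays and 6 with an intensity trend, and the granule genes had 1, 3, 5 and 6 under the same settings. The receptor, signalling and cytoskeleton lists gained up to 3, 4 and 3 higher genes, and no list gained more than 3 lower genes. Higher calls over all 21216 genes also changed, from 413 to 556 with median scaling, 2093 with normexp and 3309 with an intensity trend. Lower calls went from 600 to 593, 3024 and 4399 in turn. Over the 14859 genes above background on all arrays, 2424 were called higher and 3354 lower. At an unadjusted p under 0.05 in limma the transcription factors had 4 higher and 2 lower of 11, and the granule genes 4 higher and 2 lower of 10, where 13.1% of all genes were higher and 18.2% lower. The transcription factors that were lower were Nfe2 and Tal1, with no signal above background in either kind of stem cell. Gata1 differed by 1.05 (adjusted p = 0.055). By the 2-fold size rule 2 of 11 transcription factors were higher and 0 lower, where 496 of 21216 genes were higher and 888 lower. They were Gata2, at 1.36 (1.06 by its other probe), and Gfi1b, with a bound of 1.29 because ES cells were not above background. The receptor, granule, signalling and cytoskeleton lists held 0 by that rule in either direction. The tested genes above background in BMMNCs alone numbered 4 among receptors, 3 among granule genes, 2 among signalling genes, 0 among cytoskeleton genes and 2 among transcription factors.

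**Figure D3:**
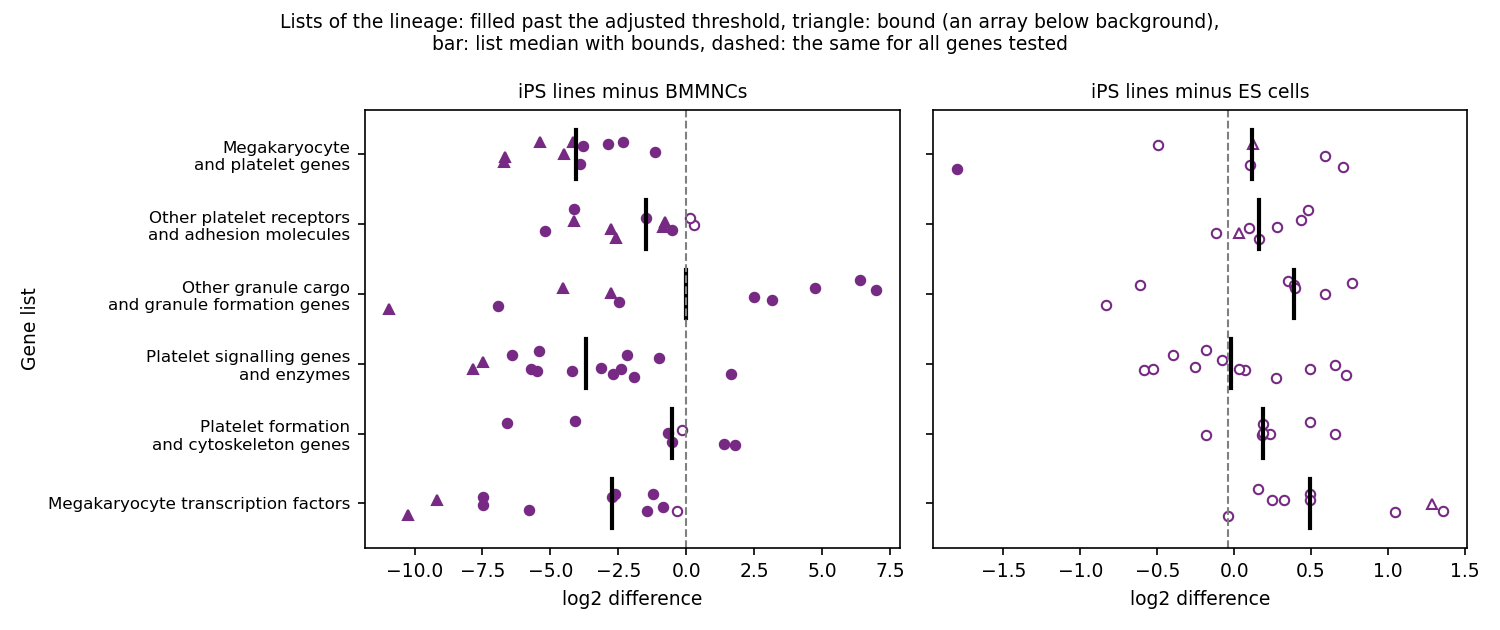
Log2 differences of tested genes in the 10 genes described here and in 5 further lists, for iPS lines minus BMMNCs and iPS lines minus ES cells, with filled points past the adjusted threshold and triangles at the bound where an array was not above background (genes above background on neither side are left out). Bars are the list medians of these values, and the dashed line is the same for all genes tested. Against BMMNCs the bars of the receptor (-1.46), signalling (-3.68) and transcription factor (-2.74) lists lie below the dashed line and that of the granule list lies on it (0.01), and against ES cells Vwf is the only filled point.

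Several of the 10 genes are also made by other cells, so markers of those cells were read on the same arrays. Of 12 endothelial genes, 4 rose, 4 fell and 4 did not pass in the iPS lines against BMMNCs, where 38% of all genes rose and 37.8% fell. Their log2 summed level was 1.09 and 1.13 in the iPS lines, 1.28 in ES cells and 0.88 in BMMNCs. Of those endothelial genes 8 were above background on each stem cell array and 10 in BMMNCs. Cdh5, which defines endothelial junctions, was not above background in iPS or ES cells, and was at least 7.22-fold lower in the iPS lines than in BMMNCs. Set against ES cells, 10 of the 12 endothelial genes had a negative difference and 2 a positive one. Over all 21216 genes tested, 11968 were negative and 9248 positive. The 10 include Cdh5, Tie1, Emcn and Erg, which were above background in neither kind of stem cell. For these no difference can be read. The fitted median was -0.20, and over the 8 genes above background on either side it was -0.26. At an unadjusted p under 0.05 in limma 3 were lower and 2 higher, where 18.2% of all genes were lower and 13.1% higher. The one past the adjusted threshold was Esam, an adhesion molecule shared by endothelial cells and platelets, which was higher by 1.37 (SE 0.10, adjusted p = 0.045). All 6 macrophage markers measured were above background on every array, as were 70% of all genes tested. Their log2 summed level was 4.79 and 4.54 in the iPS lines, 4.74 in ES cells and 8.95 in BMMNCs. All 6 fell in the iPS lines against BMMNCs, with a median log2 difference of -3.95, where 37.8% of all genes fell. Their part in the Pf4 signal of the stem cells was not tested. Erythroid markers fell in 8 of 8 cases and marrow leukocyte markers in 6 of 6, and 3 and 4 of 8 erythroid markers were above background in lines 7 and 13, 5 in ES cells and 8 in BMMNCs. Of the erythroid markers Klf1 and Epb42 were above background in ES cells and not in the iPS lines, where they were lower by at least 1.42-fold (Klf1) and 2.11-fold (Epb42), with a limma adjusted p = 0.0448 for each. The other probe of Epb42 was not above background in ES cells. Their part in the fall of the platelet genes was not tested.

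Genes next to the 10 in chromosome order moved in various directions in the iPS lines against BMMNCs. Beside Pf4 and Ppbp, the chemokine genes Cxcl3 and Cxcl5 were higher by at least 1.93-fold (Cxcl3) and 1.70-fold (Cxcl5). Next to Itga2b, Fam171a2 rose by 2.18, and next to Gp5 Lrrc15 was at least 124.6-fold higher. Beside Gp1bb, Tbx1, a T-box transcription factor gene, was at least 2.88-fold higher while Septin5, on its other side, fell by 2.13 (SE 0.12). Neighbours that fell also included Rab43 beside Gp9 (-3.00), Trem2 beside Treml1 (-2.18, SE 0.15), Slc25a11 beside Gp1ba (-1.09) and Cd9 beside Vwf (-0.53). Clec9a beside Clec1b was at least 3.25-fold lower.

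**Figure D4:**
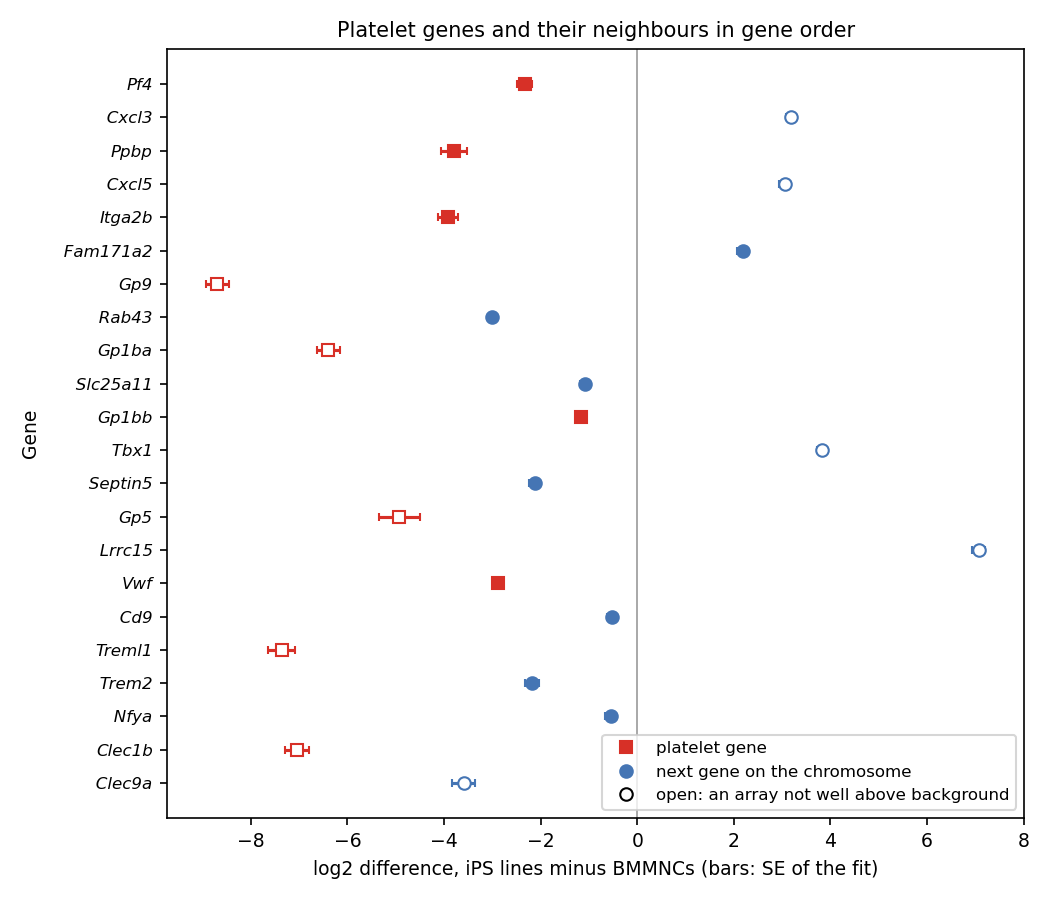
Log2 difference, iPS lines minus BMMNCs, of the 10 genes (squares) and their next genes on the chromosome (circles), with bars for the SE of the fit and open symbols where an array was not well above background, whose plotted place is the fitted value and no bound. The 10 genes all lie left of 0, while their neighbours with filled symbols run from below 0 (Rab43, -3.00) to above it (Fam171a2, 2.18). The neighbours with open symbols lie further out on either side.

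Centred on its mean over the 4 arrays, the median profile of the 10 genes was -1.21 in line 7, -1.31 in line 13, -1.50 in ES cells and 3.43 in BMMNCs, with levels below background entered as measured. Of 10967 other genes above background in BMMNCs, the nearest by Euclidean distance over the 4 arrays included H2-DMb1, Fcgr3, Unc93b1 and Stom, at distances of 0.309 to 0.312, and these 4 were above background on every array.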

How the data were processed

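RNA of 4 samples was labelled with Cy3 and read on single-colour Agilent arrays, per the labels' protocols. Feature Extraction 9.5 made the values, per the submitters' processing notes. The deposited values are intensities, a background-subtracted processed signal per spot, per the file headers. The authors' deposited intensity table is that signal times 1 factor per array on a linear scale, not centred by gene, with column medians of 135.9 (line 7), 133.6 (line 13), 139.9 (ES cells) and 106.2 (BMMNCs). The origin of these factors is not given in the sources used here.

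Control spots and 14 probes with outlier spots were left out. Levels are log2 of the processed signal relative to the 75th percentile of all spots, and 22948 of 41174 probes were named by accession through the RefSeq table of GRCm38.p6. A gene took its probe with the highest mean signal. limma 3.58.1 in R 4.3.3 (lmFit and eBayes) was fitted with a mean for each of iPS lines, ES cells and BMMNCs, which left 1 residual degree of freedom (prior 1.80 degrees of freedom, SD 0.0933), over 21216 genes above background on at least 1 array, with Benjamini-Hochberg adjustment. The fit was tested on simulated data. The number of arrays limits the precision.

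The alternatives were median and quantile scaling, normexp with an offset of 50, the deposited table, no filter, only genes above background on all arrays, the mean of probes, an intensity trend, 1 group of ES and iPS cells, and leaving out a line. The files hold no mean pixel column, so normexp used the median pixel signal. Medians of lists with arrays below background at their bound were added after seeing the data. The 10 genes and all lists were chosen with earlier results of these data known. Named list genes were the first 2 tested, the widest-differing one among those measured on both sides and any past the threshold between iPS lines and ES cells. Not every gene that the rules give is reported here. Others complete counts of 5 or fewer, or, like Srgn and the neighbours chosen for mention, were picked after their values were seen.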

Additional observations from a re-analysis of the deposited data

How the results depend on the processing

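Against BMMNCs, none of the 10 genes changed direction under any alternative, in the iPS lines or in ES cells, and among them the only call lost was that of Vwf in the iPS lines with 1 group of stem cells (given above). Over genes above background on all arrays, the counts of lower genes fell to 5 (iPS lines) and 5 (ES cells), against 10 each, and to 4 and 3 by the size rule, against 9 and 8, because that filter tests 5 of the genes. Of the further lists, without a filter on dim probes the cytoskeleton genes lower than BMMNCs numbered 2 (iPS lines) and 2 (ES cells), against 4 and 5. With 1 group of stem cells the lower receptors numbered 8, against 9, and the lower transcription factors 9, against 10. Without either line the size rule gave 9 to 9 genes lower than BMMNCs and 1 to 1 lower than ES cells.

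In the iPS lines against ES cells, the count of lower genes was 0 with the deposited table, 0 without a filter, 2 over genes above background on all arrays and 2 with the trend, against 1. The count of higher genes was 1 with normexp (Pf4, adjusted p = 0.0158 in limma), 2 over genes above background on all arrays and 2 with the trend, against 0. The causes were not tested. Over all genes, this comparison made 1013 calls, 0 with the deposited table (6634 at an unadjusted p under 0.05 in limma), 0 without a filter (4719), 5778 over genes above background on all arrays, 5117 with normexp, 7708 with the trend and 640 with the mean of probes. Differences with no signal above background changed sign: Gp9 was 0.062, Gp1ba 0.10 and Clec1b 0.13 without line 7, within leave-one-out ranges of -0.35 to 0.06, -0.33 to 0.10 and -0.32 to 0.13, and Clec1b was 0.047 with quantile scaling.

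Median scaling and normexp moved the median of all genes in the iPS lines against BMMNCs to -0.20 each, and the deposited table to 0.12, from -0.01. Normexp moved the fold against BMMNCs by over 1.5 times for Ppbp, Gp9, Gp1ba, Gp5, Treml1 and Clec1b in both comparisons and for Itga2b in the iPS lines. The folds in ES cells were 40.9 for Gp9, 9.55 for Gp1ba, 10.5 for Gp5, 27.7 for Treml1 and 15.1 for Clec1b. No other setting did so, except 1 group of stem cells for Vwf (4.84-fold). No paired analysis was possible because ES cells and BMMNCs have 1 array each and lines 7 and 13 share no replicate number with them. Without a line no residual degree of freedom is left, so those settings give values and no test.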
